A study of Arabidopsis thaliana with 12 samples.

Results

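The plastid genome of Arabidopsis thaliana was followed through 12 RNA sequencing libraries of whole seedlings. Its genes were taken as every entry whose gene identifier begins with ATCG, which gave 88 of the 27820 entries measured. All 88 were listed for the transgenic CERK1 lines, and 28 of them were listed for the flg22 experiment. Each entry was described by its share of the library and by its share of the ATCG total, so that single genes could be separated from a change of plastid reads as a whole. In the flg22 experiment wild-type and cerk1-/- seedlings received sterile water (mock) or 100 nM flg22, the flagellin epitope perceived by the receptor FLS2, with 1 library for each of the 4 combinations. One library was grouped as cerk1 with flg22 by its title, although its genotype label reads cerk2-/-. In the second experiment untreated cerk1 seedlings carried FLAG-tagged CERK1 under the CERK1 promoter, either in its wild-type form (CERK1_WT) or as 3A, 3D or 3E (CERK1_3A, CERK1_3D, CERK1_3E), with 2 libraries per line. All seedlings were 10 days old. The labels give neither the substituted residues nor the number of independent transformants, so the CERK1 form and the line cannot be told apart. The labels do not say whether the paired libraries of a line were grown separately, and p-values cover only the spread between them, which may be technical.

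Plastids keep a small genome of cyanobacterial origin. It encodes core subunits of both photosystems, the cytochrome b6f complex, the ATP synthase, the NDH complex and Rubisco, together with ribosomal proteins and the core subunits of a bacterial-type RNA polymerase. Most photosynthesis genes are transcribed by that plastid-encoded polymerase with sigma factors imported from the nucleus, whereas the rpoB operon and accD are transcribed by a phage-type polymerase encoded in the nucleus. Many plastid genes are transcribed in operons, and plastid mRNAs are then cleaved, edited and spliced with the help of nuclear-encoded RNA-binding proteins.

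Both gene pairs that lead the results in the lines are cotranscribed neighbours, and the sequences where they meet are shown because a read spanning them would cover both genes. The reading frame of psbC, the CP43 antenna protein of photosystem II, begins inside that of psbD, the D2 reaction centre protein. In the RefSeq plastid sequence of the TAIR10.1 build the shared stretch lies at Pltd:33720-33772 on the plus strand, with the psbC start codon and the psbD stop codon in capitals.
psbD-psbC overlap: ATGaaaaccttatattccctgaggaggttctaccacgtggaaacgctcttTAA
The reading frames of psaA and psaB, the paired core proteins of photosystem I, are 25 bases apart. That junction lies at Pltd:39577-39607 on the minus strand, with the psaA stop codon and the psaB start codon in capitals.
psaA-psaB junction: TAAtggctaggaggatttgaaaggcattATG
The deposited tables hold no coordinates, and the strand setting of the counting was not given in the sources used here.

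Depth was 36013439 to 41288819 counts per library in the lines and 18159354 to 22663236 with flg22 or mock treatment, and plastid entries took 0.0419% to 0.323% of them. Whether the RNA had been selected by poly(A) tails was not given in the sources used here. The stated length was equal in both experiments for 17 of the 28 shared entries, and levels were therefore not set against each other across experiments. For each experiment, 10 plastid entries were listed as longer than the gene they are numbered for by more than 100 bases, and these extended entries are called by their identifier. One of them, ATCG01100 in the lines, had a stated length of 150071 bases against 154478 for the whole plastid genome. An entry of that length spans other plastid genes. How reads were shared between extended entries and the genes inside them was not given in the sources used here. The levels of single plastid genes in both experiments may depend on that assignment. Transcript levels of CERK1 were 24.9 and 273 CPM (counts scaled to the TMM-adjusted library total) in wild type with mock and flg22 treatment, and 9.70 and 119 CPM in cerk1. In the lines they were 61.1 and 52.5 CPM in CERK1_WT and 80.2 and 73.3 CPM in CERK1_3A. They were 115 and 121 CPM in CERK1_3D, and 114 and 129 CPM in CERK1_3E. Every library of the mutated forms thus lay above both CERK1_WT libraries, so the CERK1 form and the CERK1 transcript level cannot be told apart. In whole seedlings, fewer plastid-rich cells and less plastid RNA per cell cannot be told apart.

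In the lines, the plastid share of the library was highest in both CERK1_3D libraries. It was 0.0928% and 0.117% in CERK1_WT, 0.152% and 0.124% in CERK1_3A, 0.191% and 0.323% in CERK1_3D, and 0.0930% and 0.158% in CERK1_3E. The means were 0.105% ± 0.0168, 0.138% ± 0.0197, 0.257% ± 0.0934 and 0.125% ± 0.0459 (SD, n = 2). The CERK1_3D libraries lay above all 6 others, and in percentage points they differed from each other by more than the libraries of any other line. Relative to their size, the CERK1_3E libraries lay about as far apart. The mean of CERK1_3D was 2.45 times that of CERK1_WT. An exact permutation test of the F statistic over the 4 lines gave p = 0.0762, where the smallest p possible was 0.00952.

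Most of this total was 1 entry. ATCG01100 took 63.5% to 85.5% of all plastid counts, and its count ranged from 22148 in a CERK1_3E library to 104341 in a CERK1_3D library. Its level was 633 and 839 CPM in CERK1_WT, 1171 and 954 CPM in CERK1_3A, 1424 and 2871 CPM in CERK1_3D, and 588 and 1258 CPM in CERK1_3E. The libraries of CERK1_3D, and those of CERK1_3E, lay far apart from each other, and the lower CERK1_3D value was close to the higher CERK1_3E value. Its log2 fold change in CERK1_3D was 1.54 ± 0.41 (SE) with an adjusted p of 1.00 in edgeR's quasi-likelihood test. Without ATCG01100 the plastid share of CERK1_3D was 1.46 times that of CERK1_WT (exact permutation p = 0.133).

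The 76 gene-sized entries, whose stated length is that of a single gene, gave a smaller and tighter difference. Their counts may depend on how reads were shared with the extended entries, which is not known. The gene-sized entries took 0.0214% and 0.0237% of the library in CERK1_WT, 0.0231% and 0.0236% in CERK1_3A, 0.0313% and 0.0328% in CERK1_3D, and 0.0240% and 0.0260% in CERK1_3E. Both CERK1_3D libraries again lay above the other 6, here with a gap larger than the spread within any line, and the ratio of CERK1_3D to CERK1_WT was 1.42. The exact permutation test gave p = 0.0476, a numerator chosen after the gene models had been seen. Without 1 library this p lay between 0.0190 and 0.0905, and it passed 0.05 when either library of CERK1_3A or of CERK1_3E was left out (0.0762, 0.0857, 0.0524 and 0.0905).

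**Figure D1:**
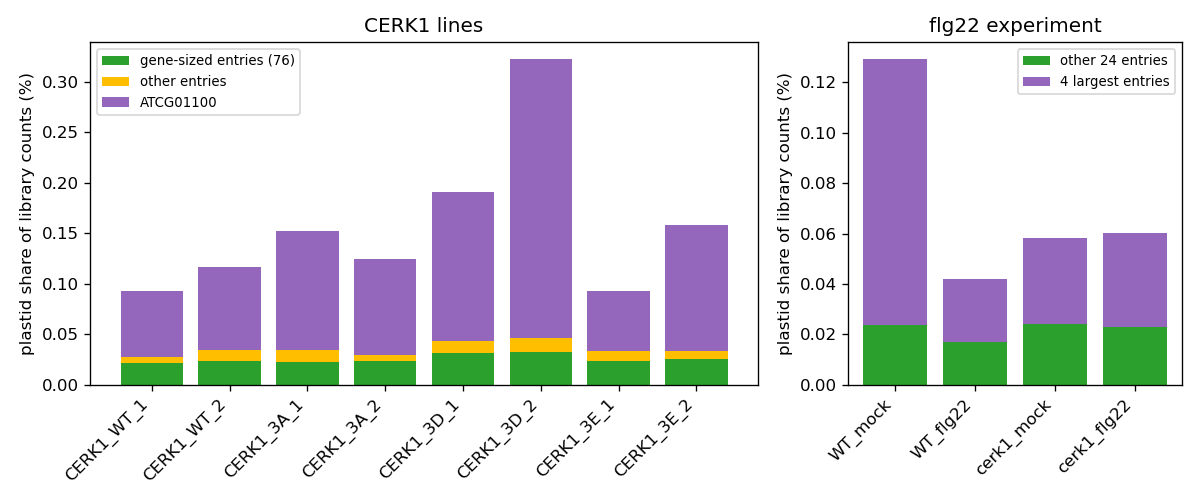
Plastid share of library counts (%) in each library of the CERK1 lines (left) and of the flg22 experiment (right), split into groups of entries; the vertical scales differ between the panels. In the lines ATCG01100 makes up most of each bar and the gene-sized part is highest in the CERK1_3D libraries. In the flg22 experiment WT_mock stands apart through the 4 largest entries, which were ranked with WT_mock included.

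Among single plastid genes, psaB rose in CERK1_3D, by more than 2-fold. psaB (ATCG00340) stood at 8.62 and 9.52 CPM in CERK1_WT, 12.2 and 11.6 CPM in CERK1_3A, 20.8 and 19.9 CPM in CERK1_3D, and 12.3 and 13.6 CPM in CERK1_3E. Every CERK1_3D value lay above every other value, an order that held for 3.68% of all genes tested. All libraries of the mutated forms lay above both CERK1_WT libraries. The log2 fold change of psaB in CERK1_3D was 1.17 ± 0.11, with an adjusted p of 0.0418 in edgeR's quasi-likelihood test over 21274 genes. It was the only plastid gene called in the 3 comparisons with CERK1_WT, 1 of 72 tested, where 0.0188% of all genes tested were called higher and 0.0094% lower in CERK1_3D. Its adjusted p ran from 1.64e-08 with DESeq2 to 0.181 when edgeR was given only the 4 libraries compared, was 0.0588 with a replicate block, and lay above 0.05 whichever of the 8 libraries was left out (0.0818 to 0.166).

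psaA, psbC and psbD had log2 differences between 0.98 and 1.38 in CERK1_3D without passing the threshold in edgeR. psaA (ATCG00350), cotranscribed with psaB, stood at 7.94 and 11.2 CPM in CERK1_WT and 19.7 and 18.0 CPM in CERK1_3D, a log2 difference of 0.98 ± 0.21 (adjusted p = 1.00). psbC (ATCG00280) stood at 7.56 and 8.87 CPM in CERK1_WT, 11.4 and 9.69 CPM in CERK1_3A, 23.9 and 18.9 CPM in CERK1_3D, and 9.27 and 9.58 CPM in CERK1_3E, with a log2 difference of 1.38 ± 0.16 between CERK1_3D and CERK1_WT (adjusted p = 0.0761). psbD (ATCG00270), whose reading frame overlaps that of psbC, stood at 6.05 and 5.35 CPM in CERK1_WT and 13.3 and 11.0 CPM in CERK1_3D, a log2 difference of 1.09 ± 0.16 (adjusted p = 0.335). For these 3 genes, too, both CERK1_3D libraries lay above all 6 others, as in 3.68% of all genes tested. DESeq2 called psaB, psaA, psbC, psbD and rbcL higher in CERK1_3D at the same threshold, with adjusted p of 1.64e-08, 0.0135, 1.20e-08, 0.000925 and 0.0181, where it called 26 genes or 0.122% of all tested.

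Rubisco and the D1 protein followed with smaller differences. rbcL (ATCG00490), the large subunit of Rubisco, stood at 15.5 and 14.2 CPM in CERK1_WT, 13.2 and 13.6 CPM in CERK1_3A, 24.2 and 24.8 CPM in CERK1_3D, and 13.1 and 16.5 CPM in CERK1_3E. Its log2 difference in CERK1_3D was 0.72 ± 0.13 (edgeR adjusted p = 0.717). psbA (ATCG00020), the D1 reaction centre protein of photosystem II, stood at 14.5 and 13.7 CPM in CERK1_WT and 19.5 and 24.3 CPM in CERK1_3D, a log2 difference of 0.64 ± 0.14 (edgeR adjusted p = 1.00). In both genes the CERK1_3D libraries lay above every other library, as in 3.68% of all genes tested. psbA and psbD have the same length, so the length check on names did not separate them.

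**Figure D2:**
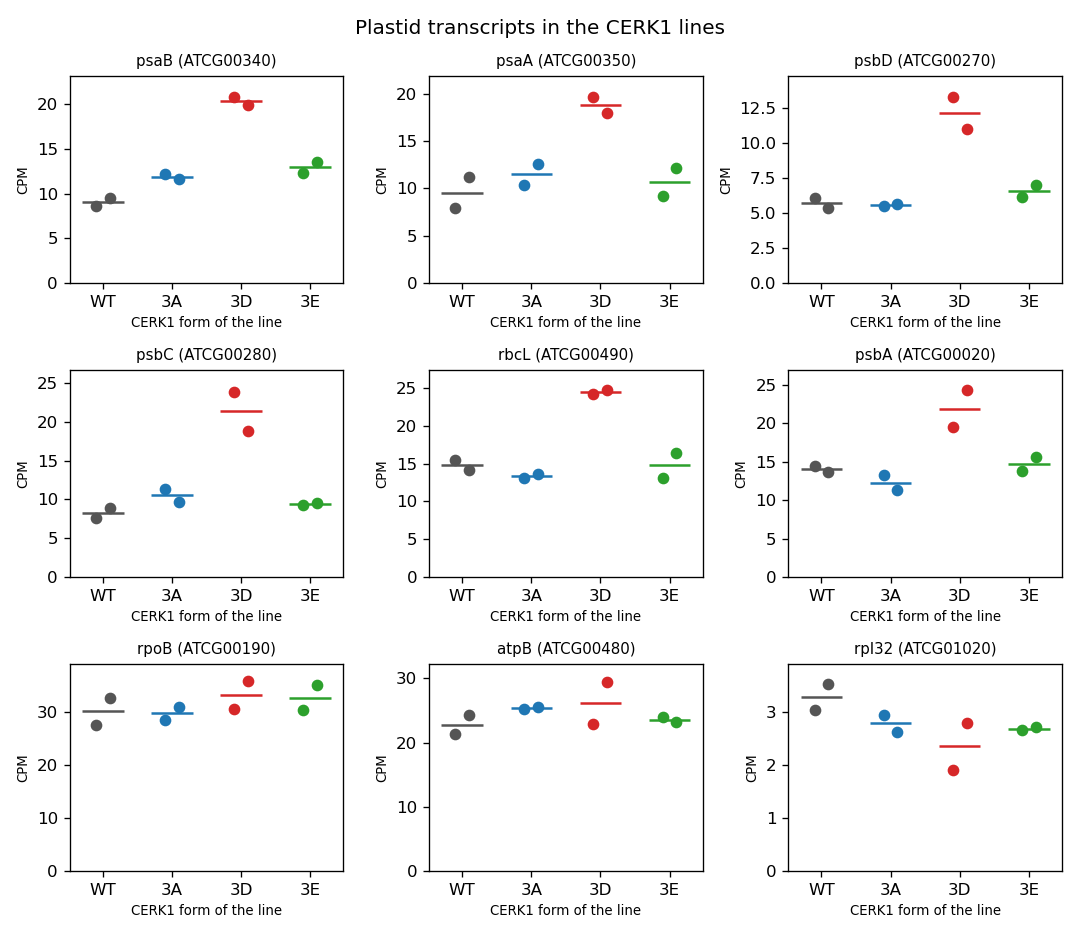
Level in CPM of 9 plastid genes in the 8 libraries of the CERK1 lines; each point is 1 library and each bar the mean of 2. The CERK1_3D points of psaB, psaA, psbD, psbC, rbcL and psbA lie above all other points, while those of rpoB and atpB overlap with other lines and rpl32 is lowest in a CERK1_3D library.

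The genes of the plastid's own expression machinery and of the ATP synthase showed less. rpoB (ATCG00190), the beta subunit of the plastid-encoded polymerase, stood at 27.5 and 32.6 CPM in CERK1_WT, 28.4 and 30.9 CPM in CERK1_3A, 30.6 and 35.7 CPM in CERK1_3D, and 30.3 and 35.1 CPM in CERK1_3E. The groups overlapped, and the log2 difference in CERK1_3D was 0.14 ± 0.13. rpoC2 (ATCG00170), another subunit of that enzyme, had a log2 difference of 0.52 ± 0.18. atpB (ATCG00480), the beta subunit of the ATP synthase, stood at 21.3 and 24.3 CPM in CERK1_WT and 22.9 and 29.4 CPM in CERK1_3D, and its log2 difference was 0.20 ± 0.13. atpA (ATCG00120), the alpha subunit, had a log2 difference of 0.15 ± 0.12. None of these 4 passed the threshold in edgeR or DESeq2. rpl32 (ATCG01020), a protein of the large ribosomal subunit, was the one plastid entry with both CERK1_3D libraries below both CERK1_WT libraries, at 1.90 and 2.81 CPM against 3.05 and 3.54 CPM (log2 difference -0.48 ± 0.26, edgeR adjusted p = 1.00). Per kilobase of stated length, mean levels in CERK1_WT were 20.7 CPM for rpl32, 15.2 for atpB, 13.3 for psbA, 10.3 for rbcL, 9.34 for rpoB, 4.24 for psaA and 4.11 for psaB.

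Counted over all 88 entries, 80 had a higher mean level in CERK1_3D than in CERK1_WT, against 43.4% of the 27612 entries in the table, which include entries at or near 0, and among entries tested 67 of 72 against 50.4%. In 27 of the 88 both CERK1_3D libraries lay above all 6 others, against 3.17% of all entries, and in 0 of the 88 below all others, against 2.84%. Of the 88 entries 72 passed the filter on low counts, and none of them depended on a single line to pass. Their median log2 difference in CERK1_3D was 0.51, against 0.00 for all genes tested. At an unadjusted p under 0.05, 20 of the 72 were higher and 0 lower, where 2.87% of all genes tested fell under that value in either direction. By role and among gene-sized entries only, the median log2 difference was 1.21 for the 7 entries outside these complexes (ranging from 0.02 for ycf1 to 1.81 for the second copy of ycf2), 0.98 for photosystem I (3 entries), 0.72 for Rubisco (1), 0.54 for the NDH complex (8), 0.47 for photosystem II (12), 0.41 for the small (10) and 0.37 for the large (10) ribosomal subunit, 0.39 for cytochrome b6f (3), 0.31 for the RNA polymerase (4) and 0.21 for the ATP synthase (4).

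Grouped by operon, psbD and psbC had a median of 1.24, psaA, psaB and rps14 of 0.98, and the 3 rpo genes of the rpoB operon of 0.19. The gene-sized entries of the other operons had medians of 0.53 (psbB), 0.44 (ndhC), 0.24 (atpI), 0.22 (psbE) and 0.21 (atpB), so operons of photosynthesis genes lay at both ends. The 6 gene-sized entries listed as transcribed by the plastid-encoded polymerase ranged from 0.64 to 1.38. The 5 listed as transcribed by the nuclear-encoded polymerase ranged from 0.14 to 1.51, and the low values among these were the rpo genes. The high values were accD (ATCG00500), a subunit of acetyl-CoA carboxylase, at 1.49 ± 0.62, and ycf2 (ATCG00860) at 1.51 ± 0.52, which reached at most 0.853 and 3.27 CPM in any library. ycf2 lies in the inverted repeat and is listed as 2 near-identical entries, so the assignment of its reads is uncertain. The ranges of both polymerase classes overlapped, and the difference between the classes was not tested.

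**Figure D3:**
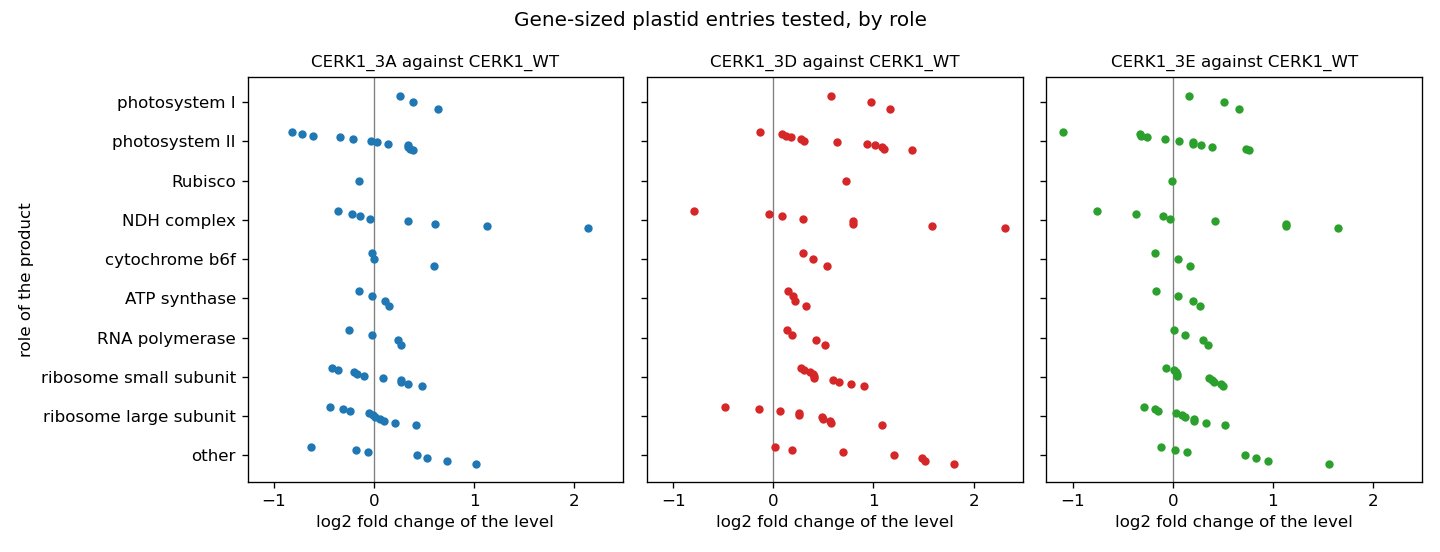
Log2 fold change of the level against CERK1_WT for the 62 gene-sized plastid entries tested, by the role of the product, in CERK1_3A, CERK1_3D and CERK1_3E; each point is 1 entry. Most CERK1_3D points lie right of 0, with photosystem I centred on 0.98 and the ATP synthase on 0.21, whereas the CERK1_3A points lie on both sides of 0.

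Relative to the plastid total, no single gene passed the test. With the ATCG total of each library as the reference, edgeR called 0 of 72 entries in CERK1_3A, CERK1_3D, CERK1_3E or over all lines, against 0.0235% of all genes over all lines, 0.0047% lower in CERK1_3A, 0.0094% higher and 0.0047% lower in CERK1_3D and 0.0047% higher in CERK1_3E, and at an unadjusted p under 0.05 it gave 5, 24, 2 and 10 of 72, where 3.08%, 2.88%, 3.35% and 3.22% of all genes fell under that value. ATCG01100 holds most of that total. Against it only 8 of the 72 entries had a positive sign in CERK1_3D, with a median of -0.73, and psaB stood at -0.03 ± 0.31 and psbC at 0.22 ± 0.37. With the gene-sized total as the reference, which was chosen after the gene models had been seen, the log2 differences in CERK1_3D were 0.88 ± 0.18 for psbC, 0.66 ± 0.12 for psaB, -0.38 ± 0.08 for rpoB and -1.01 ± 0.23 for rpl32, and edgeR called 0 entries. The sign of a gene in CERK1_3D depended on the reference, since psaB was higher in its level and against the gene-sized total, and close to 0 against the full total.

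The largest differences relative to the plastid total were in ATCG01250. ATCG01250, an extended entry with a stated length of 31241 bases, had counts of 49 and 6 in CERK1_WT, 1010 and 1 in CERK1_3A, 715 and 1209 in CERK1_3D, and 1 and 423 in CERK1_3E. Its log2 differences of 3.70 ± 2.02 in CERK1_3A and 2.47 ± 2.04 in CERK1_3E became -4.83 and -4.48 when CERK1_3A replicate 1 or CERK1_3E replicate 2 was left out. ATCG01000, the entry with the second highest share of the plastid total, was listed with 92832 bases and stood at 33.9 and 66.9 CPM in CERK1_WT, 47.4 and 23.2 in CERK1_3A, 54.8 and 61.8 in CERK1_3D, and 64.1 and 28.3 in CERK1_3E, with overlap between all lines (log2 difference in CERK1_3D 0.21 ± 0.47). ndhF (ATCG01010), a subunit of the NDH complex that carries cyclic electron flow around photosystem I, stood at 0.118 and 0.162 CPM in CERK1_WT and 0.319 to 0.908 CPM in the 6 libraries of the mutated forms. All 6 lay above both CERK1_WT libraries, with 12 to 33 counts against only 5 and 6 in CERK1_WT. Line by line, that order held for 16.3% of all genes tested in CERK1_3A, 12.7% in CERK1_3D and 16.1% in CERK1_3E. The log2 differences of ndhF relative to the plastid total were 1.78 ± 0.58 in CERK1_3A, 1.02 ± 0.58 in CERK1_3D and 1.38 ± 0.60 in CERK1_3E, with edgeR adjusted p of 1.00 in each.

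In CERK1_3D the negative end held rpl32, at -1.77 ± 0.30 (unadjusted p = 0.000372, edgeR adjusted p = 0.719). psbE (ATCG00580), a subunit of cytochrome b559 in photosystem II, stood at -1.54 ± 0.54, rpl23 (ATCG00840), a ribosomal protein gene with a second copy in the inverted repeat, at -1.51 ± 0.47, and ATCG00890 at -1.82 ± 1.24. In CERK1_3A it held ATCG00420 at -1.53 ± 0.37, psbE at -1.26 ± 0.55 and psbF (ATCG00570), the other cytochrome b559 subunit, at -1.19 ± 0.58. In CERK1_3E it held psbN (ATCG00700), which acts in photosystem II assembly, at -1.31 ± 0.85 and ndhI (ATCG01090), an NDH subunit, at -1.11 ± 0.72, while accD stood at 1.40 ± 0.56. None of these differences passed the threshold in edgeR.

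In CERK1_3A and CERK1_3E the plastid genes as a group lay closer to CERK1_WT. In CERK1_3A 0 of 72 entries were called, against 0% of all genes higher and 0.0047% lower, and at an unadjusted p under 0.05 there were 2 higher and 1 lower, where 3.07% of all genes fell under that value. Of the 88 entries 48 had a higher mean than in CERK1_WT, against 43.3% of all entries, but among those tested it was 38 of 72 against 50.5%, and the median log2 difference of the 72 tested was 0.05. In CERK1_3E 0 of 72 were called, against 0.0047% of all genes higher and 0% lower, and at an unadjusted p under 0.05 there were 4 higher and 0 lower, against 3.37% of all genes. There 61 of the 88 entries had a higher mean, again against 43.3%, or 52 of the 72 tested against 50.3%, and the median was 0.14. The log2 difference of psaB was 0.39 ± 0.11 in CERK1_3A and 0.51 ± 0.11 in CERK1_3E, with unadjusted p of 0.00879 and 0.00205 and edgeR adjusted p of 1.00 in both. DESeq2 called 0 plastid entries in either comparison, against 0.0658% of all genes in CERK1_3A and 0.183% in CERK1_3E. Differences between the mutated forms themselves were not tested.

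Nuclear genes that serve the plastid did not pass the test in any line. Of 22 genes of the plastid transcription machinery (sigma factors, polymerase-associated proteins and phage-type polymerases), 15 genes of plastid RNA maturation and 37 nuclear photosynthesis genes, edgeR called 0 in either direction in each comparison with CERK1_WT, and at an unadjusted p under 0.05 there was 1 such gene, in CERK1_3A. In CERK1_3D their median log2 differences were 0.07, 0.05 and -0.06. The summed level of the nuclear photosynthesis genes was 86617 and 114119 CPM in CERK1_3D against 92937 to 115567 CPM in the other lines. The largest single differences in CERK1_3D among them were RBCS3B, a small subunit of Rubisco with near-identical neighbours, at 1.92 ± 0.88, and PSAL, a photosystem I subunit, at -0.68 ± 0.57 (edgeR adjusted p = 1.00 for both). The summed level of 14 root markers was 198 and 128 CPM in CERK1_3D and 130 to 175 CPM in the others, none of the 14 was at 0 in any library, and their part in the plastid values was not tested.

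No entry of the mitochondrial genome was called in CERK1_3D. Of 60 tested, 47 had a positive sign, against 50.4% of all genes, with a median of 0.52. The median of the 72 plastid entries tested was 0.51. By edgeR 0 were called, and 3 had an unadjusted p under 0.05, where 2.87% of all genes tested did. The mitochondrial share of the library was 0.00788% and 0.00725% in CERK1_WT, and 0.00815% and 0.00885% in CERK1_3A. It was 0.0110% and 0.00890% in CERK1_3D, and 0.00865% and 0.00729% in CERK1_3E (exact permutation p over the 4 lines = 0.152). Both CERK1_3D values thus lay above those of every other line, as they did for the plastid share, with the lower one close to the higher CERK1_3A value. The summed mitochondrial level was 107 and 92.6 CPM in CERK1_3D and at most 88.9 CPM in the other lines. The part of this share in the plastid values was not tested.

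In the flg22 experiment, WT_mock held the most plastid reads. The plastid share was 0.129% in WT_mock (95% exact binomial interval 0.128% to 0.131%), 0.0419% in WT_flg22 (0.0411% to 0.0428%), 0.0581% in cerk1_mock (0.0570% to 0.0592%) and 0.0601% in cerk1_flg22 (0.0590% to 0.0612%). The share was 3.08-fold lower with flg22 in wild type (counting interval 3.01 to 3.16) and 1.03 times the mock value in cerk1 (1.01 to 1.06). With mock treatment it was 2.23-fold lower in cerk1 than in wild type (2.18 to 2.28), and with flg22 it was 1.43 times higher in cerk1 (1.39 to 1.47). Both comparisons with a large difference share the WT_mock library. There was 1 library per combination, so no difference has a replicate check, and intervals cover counting error only.

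The excess of WT_mock lay in the 4 plastid entries with the highest mean counts over all 4 libraries. WT_mock entered that ranking, so the split between these entries and the others was partly set by its own values. ATCG00440, an extended entry of 13400 bases, had 7640 and 1781 counts in wild type with mock and flg22, and 1650 and 2264 in cerk1. ATCG00220, an extended entry of 24026 bases, had 4748, 2135, 3019 and 3299 counts in that order. psbC had 4240, 1007, 627 and 931 counts, and ATCG00730, an extended entry of 5994 bases, had 2956, 699, 890 and 1122. In all 4 entries WT_mock was the highest library, and the other 3 libraries lay below it. Together these entries made up 81.5% of the plastid counts in WT_mock and 58.6% to 61.8% in the others. The other 24 entries took 0.0239% (mock) and 0.0171% (flg22) of the library in wild type, and 0.0241% and 0.0229% in cerk1. Over those 24 entries WT_mock lay close to both cerk1 libraries, and WT_flg22 was the lowest, 1.40-fold below WT_mock (1.34 to 1.46).

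psbA and the entries numbered for atpB and rbcL did not follow the total. psbA had 720 and 890 counts in wild type with mock and flg22, and 664 and 731 in cerk1, or 36.3, 44.6, 33.4 and 36.8 CPM. Its level in WT_flg22 was 1.23 times that in WT_mock (counting interval 1.11 to 1.36), so that its share of the plastid total was 3.12 times higher (2.83 to 3.45). ATCG00490, an extended entry of 2837 bases, had 930, 984, 859 and 1032 counts, and its level ratio with flg22 in wild type was 1.05 (0.960 to 1.15). ATCG00480, an extended entry of 4292 bases, had 1259, 1019, 1212 and 1243 counts, with a level ratio of 0.804 (0.740 to 0.874). ATCG00580, of 5454 bases, had 386, 377, 431 and 454 counts. cemA (ATCG00530), a plastid envelope protein, had 56, 71, 61 and 92 counts. In these 5 entries WT_mock did not stand above the other libraries as it did in the total.

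**Figure D4:**
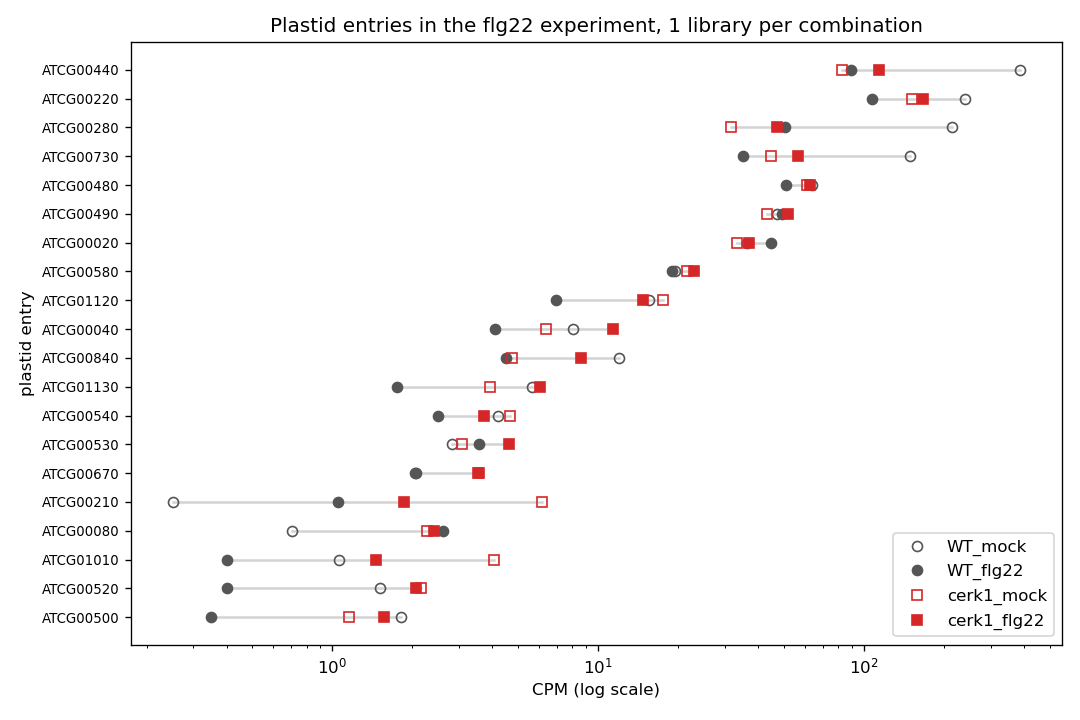
Level in CPM (log scale) of the 20 plastid entries with at least 40 counts over the 4 libraries of the flg22 experiment; open symbols are mock, filled symbols flg22, circles wild type and squares cerk1, with 1 library per symbol. WT_mock lies far to the right for ATCG00440, ATCG00280 (psbC) and ATCG00730 and close to the other libraries for ATCG00480, ATCG00490 and ATCG00020 (psbA).

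With flg22 in wild type, 1 of 20 plastid entries was at least 2-fold higher on CPM + 1 and 8 were at least 2-fold lower, where 13.2% and 5.79% of all genes were. The lower ones were the 4 large entries together with accD, ATCG00840, ATCG01120 and ycf1 (ATCG01130). accD had 36 and 7 counts and ycf1 112 and 35, 3.22-fold lower in level (counting interval 2.19 to 4.85). The higher one was ATCG00080, with 14 and 52 counts. The median log2 ratio of the 20 entries was -0.70, against -0.03 for all genes. Relative to the plastid total, 8 of the 20 entries were at least 2-fold higher and 1 lower.

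With flg22 in cerk1, 0 of 20 entries were at least 2-fold higher and 2 lower, where 15.2% and 5.38% of all genes were. The lower ones were ATCG00210, with 122 counts in cerk1_mock and 37 in cerk1_flg22 against 5 and 21 in wild type, and ndhF, with 81 and 29 counts against 21 and 8. Against the plastid total, ATCG00840 (94 and 171 counts) had 1.56 times its mock share, ATCG00040 (127 and 225 counts) 1.52 times, and petA (ATCG00540), the cytochrome f gene, with 93 and 74 counts, 0.682 times. The median log2 ratio of the 20 entries was 0.13, against -0.01 for all genes. The difference between the 2 genotypes in the flg22 ratio was not tested.

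Between genotypes with mock treatment, 2 of 20 entries were at least 2-fold higher in cerk1 and 4 lower, where 0.302% and 4.01% of all genes were. The higher ones were ATCG00210 and ndhF, and the lower ones psbC, ATCG00440, ATCG00730 and ATCG00840. psbC was 6.78-fold lower in cerk1_mock (counting interval 6.24 to 7.39). Relative to the plastid total, 12 of the 20 entries were at least 2-fold higher in cerk1_mock and 2 lower. ATCG00080 stood at 7.32 times, clpP (ATCG00670), a subunit of the plastid protease, at 3.89 times and ycf4 (ATCG00520), a photosystem I assembly factor, at 3.26 times. In level the ratios were smaller, at 3.20 (1.73 to 6.32), 1.70 (1.14 to 2.57) and 1.43 (0.876 to 2.36) in that order. The summed level of the 14 root markers was 191 and 133 CPM in wild type with mock and flg22, and 73.4 and 116 CPM in cerk1. Of these markers 9 were at least 2-fold lower in cerk1_mock than in WT_mock and none of the 14 was at 0 in any library, and their part in the plastid values was not tested.

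Between genotypes under flg22, 3 of 20 entries were at least 2-fold higher in cerk1 and 0 lower, where 0.641% and 0.97% of all genes were. The 3 were ycf4 with 41 counts against 8, 5.15 times higher (2.38 to 12.7), ycf1 with 120 against 35, 3.45 times (2.35 to 5.18), and ATCG00040 with 225 against 82, 2.76 times (2.13 to 3.60). accD, with 31 and 7 counts, and ndhF, with 29 and 8, also exceeded 2-fold relative to the plastid total. For all 5, WT_flg22 was the lowest of the 4 libraries.

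The nuclear genes of plastid expression had negative median ratios with flg22 in both genotypes. Of 21 measured genes of the plastid transcription machinery 0 were at least 2-fold higher and 2 lower in wild type (median log2 ratio -0.48), and 0 and 4 in cerk1 (-0.61), the largest being SIG4, a sigma factor, at -1.92 and -2.24 and PTAC2, a component of the transcriptionally active chromosome, at -1.64 and -1.61. Of 15 genes of plastid RNA maturation 0 were higher and 3 lower in wild type (-0.54), and 0 and 4 in cerk1 (-0.61). The 37 nuclear photosynthesis genes had medians of -0.03 in wild type, with 0 past 2-fold, and -0.30 in cerk1, with 0 higher and 1 lower, RBCS1B at -1.16. Across the 18872 genes of this experiment, 13.2% passed the same cut upward and 5.79% downward in wild type. In cerk1 these shares were 15.2% and 5.38%. The median log2 ratio over that whole set was -0.03 in wild type and -0.01 in cerk1. Whether the 3 lists differ from the whole set was not tested. The mitochondrial share of the library was 0.0167% (mock) and 0.00523% (flg22) in wild type, and 0.00639% and 0.00773% in cerk1. WT_mock stood apart there too, and the part of this library in the plastid values cannot be told apart from that of the treatment or the genotype.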

How the data were processed

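The count tables, with 12 sample columns that were all used, hold whole-number counts per gene as deposited by the authors, who applied no normalization. Reads were placed on TAIR10 per the submitters' processing notes. Aligner, counter and strand setting: not given in the sources used here. Without molecular identifiers, PCR copies cannot be separated from molecules.

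Counts were scaled by TMM in edgeR 4.0.16 (R 4.3.3). In the lines, edgeR's quasi-likelihood test with filterByExpr was fitted to all 8 libraries and 21274 genes, with line as the only term (4 residual degrees of freedom) and Benjamini-Hochberg adjustment over all genes tested at a threshold of 0.05. Standard errors are the absolute log2 fold change divided by the square root of its F statistic. A second fit replaced the offset of plastid entries by the log of their library total. DESeq2 1.42.0 was an alternative. On data simulated with the same dispersion for every gene, a set of well-counted genes was changed 4-fold. Of that set 100% were recovered in CERK1_3D against CERK1_WT in fits over 21151 genes. Recovery of smaller changes, or with dispersion that differs between genes, was not tested. In the flg22 experiment, ratios were formed on CPM + 1 over 18872 genes with at least 1 CPM in a library, or on counts with 95% exact binomial intervals. Plastid ratios relative to their total used entries with at least 40 counts over the 4 libraries.

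Gene names follow the standard locus numbering and are given where the stated length equals that of the RefSeq gene in at least 1 table. That held for 68 of 88 entries in the lines, and in 55 of 55 entries with a length of only 1 RefSeq gene the name was the same. Named entries were the called ones, the 10 with the highest mean share of the plastid total per table, and the 5 with the largest difference relative to that total per comparison. psbD, psbC in the lines and ycf2 were chosen after their values were seen. The members and gene lists were chosen with earlier results of these data known. Replicate differences correlated between lines with r of -0.04 to 0.15, so replicate numbers were not taken as pairs. Replicates differed beyond sampling noise in every line.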

Additional observations from a re-analysis of the deposited data

Results flagged for a closer look

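With flg22, the plastid share of the library was 0.324 times the mock value in wild type and 1.03 times in cerk1. Single entries with opposite directions in the 2 genotypes, each beyond its counting interval, were the following, as level ratios of flg22 to mock in wild type and then in cerk1. ATCG00440 had 0.232 and 1.37, psbC (ATCG00280) 0.236 and 1.49, ATCG00730 0.235 and 1.26, and ATCG00220 0.447 and 1.09. ATCG00040 had 0.509 and 1.77, ATCG00840 0.376 and 1.82, and ycf1 (ATCG01130) 0.310 and 1.54. ATCG00210 went the other way, with 4.17 and 0.304, on 5 and 21 counts in wild type and 122 and 37 in cerk1. All the wild-type ratios share the WT_mock library. It was the highest library for ATCG00440, psbC, ATCG00730, ATCG00220 and ATCG00840, and the lowest for ATCG00210. The share of all genes with such opposite directions was not counted. With 1 library per combination the difference between genotypes was not tested.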

How the results depend on the processing

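The call of psaB in CERK1_3D was lost (0 plastid entries called) with a mean CPM of at least 5, with only the 4 libraries compared, with a replicate block, and in every fit without 1 library (0 to 0). DESeq2 called 5 entries in CERK1_3D (0.122% of all genes) and 6 over all lines (0.555%), where edgeR called 1 and 0 (6 and 5 of all genes), and edgeR without a filter on low counts called 2, psbC and psaB. The replicate block changed no other call. Leaving out 1 library turned the log2 difference of ATCG01000 in CERK1_3D to -0.20 (without CERK1_WT replicate 1; range up to 0.78) and those of ATCG01250 relative to the total to -4.83 in CERK1_3A (up to 6.01) and -4.48 in CERK1_3E (up to 4.78). The ratio of the plastid share of CERK1_3D to CERK1_WT was 1.46 without ATCG01100 and 1.42 over gene-sized entries, whose exact permutation p of 0.0476 became 0.0190 to 0.0905 without 1 library.

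In the flg22 experiment the plastid share ratio with flg22 in wild type was 0.393 with TMM-scaled totals and 0.386 without the largest entry. In cerk1 it was 1.17 and 1.00, and 1.11 over gene-sized entries. Between genotypes with mock treatment it was 0.438, 0.556 and 0.348 in the same order, and under flg22 1.30 with TMM-scaled totals and 1.18 over gene-sized entries. Counts of entries past 2-fold became 4 in wild type, 0 in cerk1 and 0 between genotypes under flg22 with CPM + 5, and 6 in the last with CPM + 0.1. Relative to the plastid total they became 6 (flg22 in cerk1) and 9 (genotypes under flg22) with all entries of at least 1 count, and 7 (genotypes with mock) against the median plastid ratio. The cause of these changes was not tested. Entries with few counts were limited by counting error.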
